A study of Mus musculus with 13 samples.

Results

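The phase II conjugating enzyme families of the liver were described in RNA sequencing of DMBA-treated mice on a high-fat diet. The members were all protein-coding genes whose symbols begin with Ugt1a, Ugt2, Sult and a digit, Gst with a class letter and a digit, or Mgst and a digit. They numbered 65 of the 53465 genes in the count table, of which 21942 were protein-coding. The families held 9 Ugt1a, 10 Ugt2, 21 Sult, 4 Gsta, 7 Gstm, 3 Gstp, 4 Gstt, 1 Gstk, 2 Gsto, 1 Gstz and 3 Mgst genes, and 7 pseudogenes with matching symbols were left out. Liver RNA came from 6 wild type (WT) and 7 Nod2-/- male mice, 1 library per mouse. All mice were on the BALB/c background, had been given the carcinogen DMBA on the skin as pups and were kept on high-fat diet, so every control also carried the carcinogen and the diet. The labels give 30 weeks both as the age of the mice and as the time on the diet. Nod2-/- mice lack Nod2, a cytosolic sensor of bacterial peptidoglycan, in all cells. WT and Nod2-/- mice were bred separately in the same room, not as littermates, so genotype and breeding line cannot be told apart. The comparison asks which liver genes differ in level between the genotypes in this model of obesity-dependent liver cancer. How much tumor each liver sample held is not given in the sources used here. The paper reports liver tumors in a larger share of Nod2-/- than of WT males treated this way, and greater weight gain in Nod2-/- males. Genotype, tumor and body weight therefore cannot be told apart in this comparison.

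Conjugating enzymes attach a polar group to drugs, carcinogens, hormones and bilirubin, so that the product can be exported into bile or urine. UDP-glucuronosyltransferases (Ugt) sit in the endoplasmic reticulum and add glucuronic acid, cytosolic sulfotransferases (Sult) add sulfate from PAPS, and glutathione transferases (Gst in the cytosol, Mgst in membranes) add glutathione. The liver is the main site of these reactions, and many of the genes are controlled by xenobiotic receptors, by liver transcription factors and by the pattern of growth hormone release that differs between the sexes.

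The count totals per library ran from 14886273 to 20579984 in the WT group and from 13824780 to 19391431 in the Nod2-/- group. All 14 genes of a hepatocyte marker list were expressed, and their summed level was 99890 to 135700 CPM (counts scaled to a common library total) in WT and 102700 to 197200 CPM in Nod2-/- mice. Transcripts of lung epithelium, which a liver should not hold, were present at 15.1 to 206 CPM in WT and 3.76 to 34.7 CPM in Nod2-/- livers, with 5 of 6 tested markers lower in Nod2-/- at an unadjusted p under 0.05; their part in the results was not tested. WT replicate 3 stood apart: without it, 1156 genes in place of 157 passed a false discovery rate (FDR) of 5%, and the members whose call changed without it are named below. The Nod2 transcript was too scarce to check the genotype labels.

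Of the 65 members, 43 had enough reads to be tested. All 65 together came to 1.40% of the library total after TMM normalization in WT and 1.09% in Nod2-/- livers, as group means. By reads per exon length, Mgst1, the membrane-bound microsomal glutathione transferase, was the most abundant at 1830 CPM per kb in WT and 1476 in Nod2-/- mice. It alone held between 23.7% and 29.6% of the members' summed counts in the WT group, and between 25.0% and 29.8% in the Nod2-/- group. Next in the order, as means over all mice, came Gstp1 (534 CPM per kb), Gstm1 (492), Ugt2b36 (370), Ugt2b1 (349), Sult1a1 (293), Sult2a8 and Ugt2b5 (both 267) and Gsta3 (229). Of the 42 neighbouring pairs in this order 39 differed by less than the larger SD over the 13 mice; the exceptions were Mgst1 over Gstp1, Gstm1 over Ugt2b36 and Gsto1 over Gstm4. At the other end Gsto2 lay at 0.222 CPM per kb. By this measure the Ugt1a family, in which Ugt1a1 led with 50.3 CPM per kb, was far below the leading Ugt2 genes. Of the 43-base stretches of Ugt1a1, the length of a read, 58.3% occur in another gene, against 0.198% for Ugt2b1. For Gstp1 the share was 35.3% and for Ugt2b5 46.1%. How reads in such stretches were counted is not given, so the levels and places of these genes are uncertain and may be too low.

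**Figure D1:**
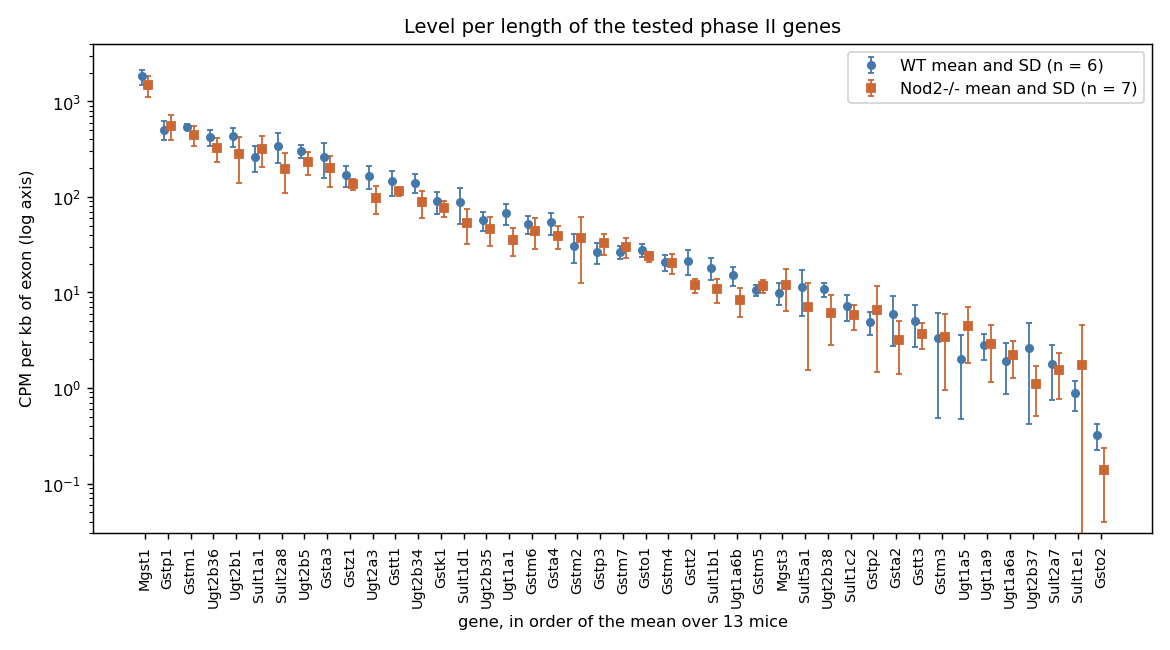
Mean level of each tested member in CPM per kb of exon (log axis) for WT (circles, n = 6) and Nod2-/- mice (squares, n = 7), with bars for the SD. Levels span from Mgst1 at 1640 to Gsto2 at 0.222 as means over all mice, and the SD bars of the genotypes overlap for most genes.

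Normalized counts below are counts scaled to the mean library size after TMM normalization, and log2 fold changes are Nod2-/- against WT from edgeR's quasi-likelihood test, with their SE. At 5% FDR over all 13545 genes tested, 1 of 43 members was lower in Nod2-/- mice, namely Gstt2, and 0 were higher. In the same test 1.16% of all genes were called, 0.509% as lower and 0.65% as higher. At an unadjusted p under 0.05, 15 of 43 members differed, against 23.1% of all genes. Of these 14 were lower and 1, Ugt1a5, was higher, against 10.2% and 12.9% of all genes. The log2 fold change was below 0 in 30 of 43 members, against 47.7% of all genes tested. Genes with high counts leaned the same way as the members: among genes whose average log2 CPM was 5 or more, 63.8% were below 0 and 19.4% were lower at an unadjusted p under 0.05. Of the 26 members at that level, 22 were below 0 and 10 were lower at an unadjusted p under 0.05. The median log2 fold change was −0.32 over the members and 0.02 over all genes tested.

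No member had genotypes without overlap, against 1.44% of all genes in either direction and 0.687% with Nod2-/- lower, so each comparison below rests on shifted and not on separate groups. The DESeq2 test called 6 members lower (Gstt2, Sult1b1, Ugt1a1, Ugt1a6b, Ugt2a3 and Ugt2b34), with 4.03% of all genes lower and 8.41% called in either direction. The limma voom test with sample weights called Gstt2, Sult1b1, Ugt1a1 and Ugt1a6b, with 2.39% of genes lower and 6.22% in either direction. Without WT replicate 3, edgeR called 5 members lower (Gstt2, Sult1b1, Ugt1a1, Ugt1a6b and Ugt2a3), against 3.37% of all genes, and Ugt1a5 higher, with 8.49% of genes called in either direction.

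**Figure D2:**
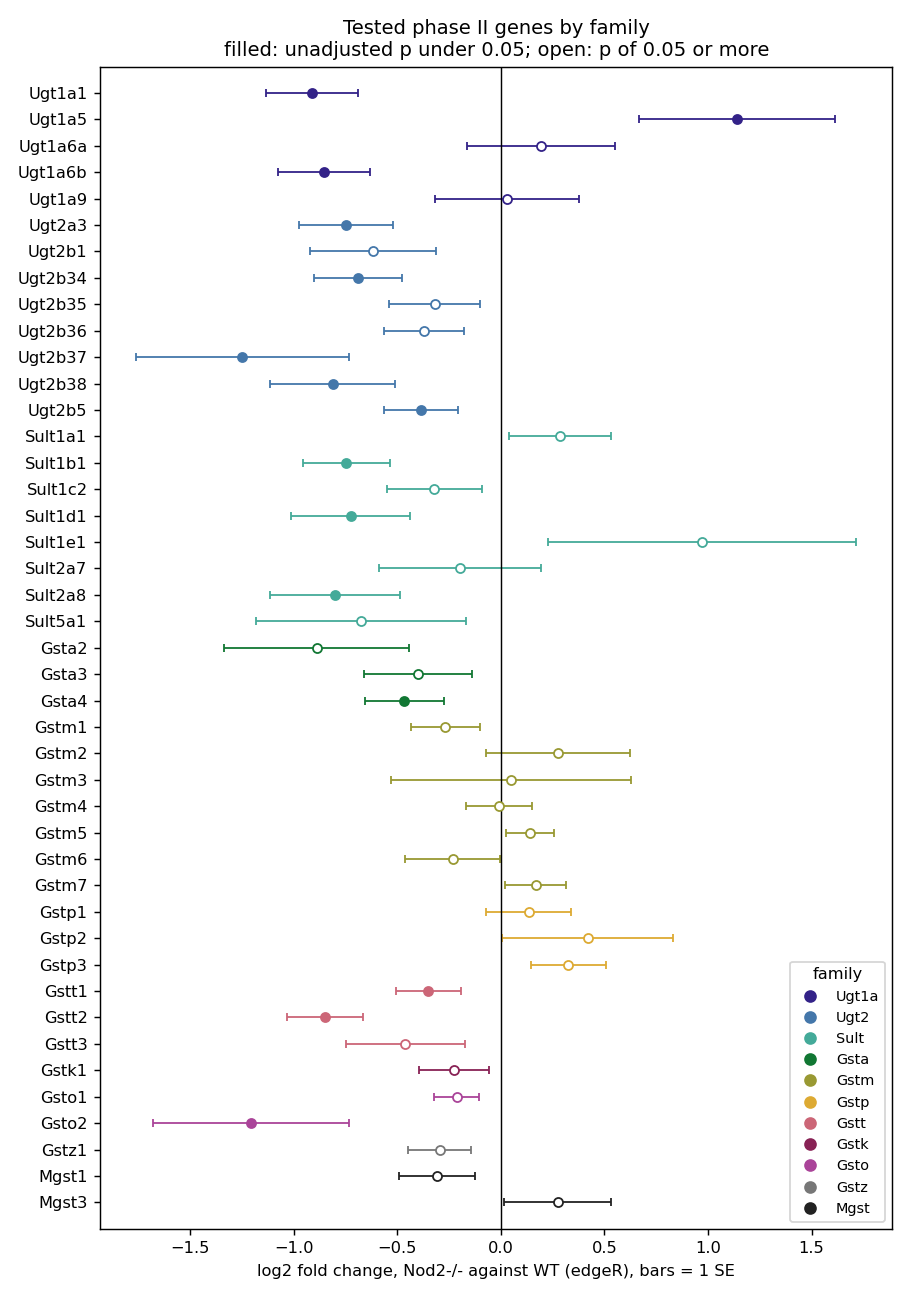
Log2 fold change of the 43 tested members, Nod2-/- against WT, with bars of 1 SE; filled points had an unadjusted p under 0.05. All 8 Ugt2 genes lie below 0 and all 3 Gstp genes above 0, while Ugt1a and Sult genes lie on both sides.

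The summed level of all members was 13950 ± 2454 CPM (SD, n = 6) in WT and 10870 ± 2223 CPM (SD, n = 7) in Nod2-/- livers. As a share of the WT mean it was 61.3% for Ugt1a, 69.4% for Ugt2, 71.9% for Gstt, 72.0% for Sult and 75.5% for Gsta. It was 80.8% for Mgst, 81.5% for Gstz, 85.4% for Gstk, 85.7% for Gsto, 87.3% for Gstm and 110% for Gstp. These sums lean on the most abundant genes and are given without a test. They were relative to each library's total after TMM normalization. In whole liver, fewer hepatocytes and less RNA per hepatocyte cannot be told apart.

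**Figure D3:**
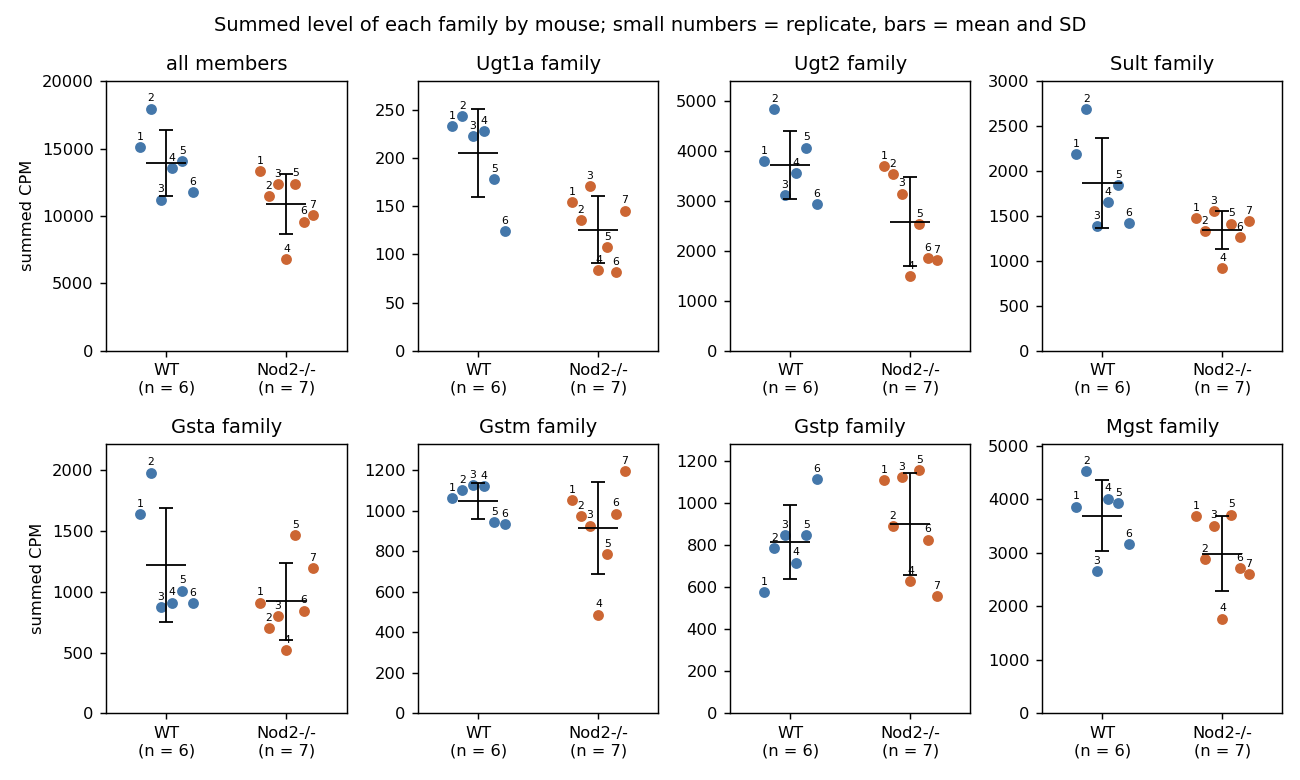
Summed CPM of all members and of 7 families in each mouse (small numbers give the replicate), with mean and SD. Nod2-/- replicate 4 is the lowest Nod2-/- mouse for all members together, at 6827 CPM, and the genotypes overlap in every panel.

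The Ugt1a genes lie in 1 locus on chromosome 1, where each gene has its own promoter and initial exon, which gives the substrate specificity, and all share the last exons. Of 5 tested genes 3 had log2 fold changes above 0 and 2 below, and 2 were lower and 1 higher at an unadjusted p under 0.05. At that threshold 10.2% of all genes tested were lower and 12.9% higher. Ugt1a1 is the enzyme that conjugates bilirubin. Its normalized counts were lowest 1444, median 2623 and highest 3127 in WT mice, and 772.6, 1288 and 1995 in Nod2-/- mice. Among the Nod2-/- mice, 5 were below every WT mouse, and the overlap came from WT replicate 6, the lowest WT mouse. The log2 fold change was −0.91 (SE 0.22), with an adjusted p of 0.0585 by edgeR, 0.00323 by DESeq2 and 0.0355 by voom, and a two-sided exact permutation p of 0.00408. Leaving out 1 mouse at a time gave log2 fold changes from −1.04 to −0.82, and 4 of 13 such fits passed 5% FDR.

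Ugt1a6b, an enzyme of the phenol-conjugating Ugt1a6 type, gave a similar picture. Its normalized counts ranged from 343.9 to 715.8 (median 635.9) in WT and from 155.6 to 460.2 (median 297.1) in Nod2-/- mice, with WT replicate 6 again inside the Nod2-/- range. The log2 fold change was −0.85 (SE 0.22, edgeR adjusted p = 0.0659, exact permutation p = 0.00466), and DESeq2 gave an adjusted p of 0.00788. Its close copy Ugt1a6a had a log2 fold change of 0.19 (SE 0.36), and 81.1% of the 43-base stretches of Ugt1a6b transcripts, the length of a read, also occur in Ugt1a6a, so the split between this pair is uncertain.

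Ugt1a5 was the member with the opposite direction. Its normalized counts were between 41.66 and 76.23 in 5 WT mice and 185.3 in WT replicate 3. In Nod2-/- mice they fell into a low set of 60.61, 62.58 and 63.29 (replicates 3, 6 and 5) and a high set of 203.0, 237.9, 248.3 and 262.6 (replicates 1, 2, 4 and 7). The log2 fold change was 1.14 (SE 0.47, edgeR adjusted p = 0.172, exact permutation p = 0.0647). Without WT replicate 3 it was 1.66, with an adjusted p of 0.0371. For every 100 normalized counts of Ugt1a1, WT mice had 1.40 to 7.37 counts of Ugt1a5 and Nod2-/- mice 3.04 to 28.9, the highest in replicate 4; this ratio was chosen after the values were seen.

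Ugt1a9 had a log2 fold change of 0.03 (SE 0.35), and its sign changed with the test and with single mice. Ugt1a2, Ugt1a7c, Ugt1a8 and Ugt1a10 had too few reads to test. Between 52.4% and 81.4% of the 43-base stretches of the tested Ugt1a transcripts occur in another gene. Ugt1a8 shares 61.9% of its stretches and still had 2 reads in all 13 mice, so reads in the shared exons were not counted on every gene of the locus. How they were assigned is not given in the sources used here.

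Because Ugt1a1 and Ugt1a5 differed in direction within the same locus, their promoters are shown, 250 bases before to 50 after the start site, from RefSeq (GRCm38.p6). The Ugt1a1 promoter is at chr1:88211709-88212008 and the Ugt1a5 promoter at chr1:88165762-88166061, both on the plus strand. Capitals mark matches to the motifs searched in the promoters of all members, on both strands: GCGTG (core of the site of the aryl hydrocarbon receptor), TGACNNNGC (core of the antioxidant response element) and AGGTCA (bound by many nuclear receptors).
Ugt1a1: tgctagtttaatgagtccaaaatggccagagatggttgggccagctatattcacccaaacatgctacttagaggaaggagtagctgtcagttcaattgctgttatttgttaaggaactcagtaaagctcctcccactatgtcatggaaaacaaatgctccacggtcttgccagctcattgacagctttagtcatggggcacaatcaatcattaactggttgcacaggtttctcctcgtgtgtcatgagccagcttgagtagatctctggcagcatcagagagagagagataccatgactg
Ugt1a5: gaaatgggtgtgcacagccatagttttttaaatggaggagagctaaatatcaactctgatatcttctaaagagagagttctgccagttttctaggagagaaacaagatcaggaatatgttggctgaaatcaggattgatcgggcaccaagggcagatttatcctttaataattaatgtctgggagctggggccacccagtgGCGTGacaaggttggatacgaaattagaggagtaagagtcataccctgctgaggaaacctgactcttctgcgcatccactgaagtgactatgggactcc
The Ugt1a1 promoter held no match to these letters, and the Ugt1a5 promoter held 1 match, to GCGTG at −49 from the start site. Over the 70 promoters found for 58 members, GCGTG matched 14, against 32.4% of 32851 promoters in the table. The shares were 5.71% against 12.4% for TGACNNNGC and 17.1% against 16.3% for AGGTCA. A match to letters is no sign that a factor binds there.

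The Ugt2 genes lie side by side on chromosome 5 and conjugate steroids, bile acids and many drugs. All 8 tested genes had log2 fold changes below 0, from −1.25 to −0.32 with a median of −0.65. At an unadjusted p under 0.05, 5 were lower, 0 passed 5% FDR by edgeR and 2 passed by DESeq2. Among genes with an average log2 CPM of 5 or more, 63.8% were below 0 and 19.4% were lower at that unadjusted p. Over all genes tested these shares were 47.7% and 10.2%, and DESeq2 called 4.03% lower. The summed level was 3720 ± 687.8 CPM (SD, n = 6) in WT and 2582 ± 893.3 CPM (SD, n = 7) in Nod2-/- mice, and 4 Nod2-/- mice (replicates 4 to 7) were below every WT mouse.

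Ugt2a3 had normalized counts of lowest 4137, median 5657 and highest 8237 in WT and 1900, 3337 and 4764 in Nod2-/- mice. Its log2 fold change was −0.75 (SE 0.23, edgeR adjusted p = 0.0875, exact permutation p = 0.0105), with an adjusted p of 0.0207 by DESeq2. Ugt2b34 ranged from 7094 to 13750 (median 9903) in WT and from 3529 to 8857 (median 6377) in Nod2-/- mice, with a log2 fold change of −0.69 (SE 0.21, edgeR adjusted p = 0.0910, exact permutation p = 0.0105). For both genes 4 of 7 Nod2-/- mice were below every WT mouse, and the others lay within the WT range.

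Ugt2b1 and Ugt2b36 had the most reads of the family. Ugt2b1 had normalized counts of 14130 to 23690 (median 16770) in WT and 5182 to 19630 (median 11250) in Nod2-/- mice, a log2 fold change of −0.62 (SE 0.30, edgeR adjusted p = 0.237, exact permutation p = 0.0519). Ugt2b36 had 10380 to 18400 (median 14400) in WT and 6748 to 14750 (median 11530) in Nod2-/- mice, a log2 fold change of −0.37 (SE 0.19, edgeR adjusted p = 0.262, exact permutation p = 0.0758). Neither gene passed the test. For Ugt2b1, 4 Nod2-/- mice were below every WT mouse, and for Ugt2b36, 3.

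Ugt2b38 had 281.1 to 426.6 normalized counts (median 324.0) in WT mice. In Nod2-/- mice it was at 248.6 to 324.2 in replicates 1 to 3 and at 83.30 to 165.3 in replicates 4 to 7, a log2 fold change of −0.81 (SE 0.30, edgeR adjusted p = 0.135, exact permutation p = 0.0181). Ugt2b37 had the fold change farthest from 0 of all members, −1.25 (SE 0.51, edgeR adjusted p = 0.168, exact permutation p = 0.0932), but its WT counts were 22.55 to 49.34 in 4 mice and 137.0 and 195.7 in replicates 5 and 6. In Nod2-/- mice it ranged from 7.84 to 58.56, so 2 WT mice carried the difference. Ugt2b5 (−0.38, SE 0.18) and Ugt2b35 (−0.32, SE 0.22) had smaller values. Ugt2b5, Ugt2b37 and Ugt2b38 share 46.1%, 23.5% and 42.8% of their 43-base stretches with other genes and cannot be fully told apart.

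In 7 of the 8 tested Ugt2 genes, Nod2-/- replicates 1, 2 and 3 were the highest of the Nod2-/- mice, as in 13 of 43 members and 11.3% of all genes tested. The pattern was noticed in the values and the labels give no reason to set these mice apart.

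The same stretch of chromosome 5, from Ugt2b34 at 86889767 to Sult1e1 at 87591594 (GRCm38), also holds the Sult1b1, Sult1d1 and Sult1e1 genes. Of 11 tested members in it, 10 had log2 fold changes below 0, 7 of them at an unadjusted p under 0.05, and Sult1e1 was above 0. Over all genes tested, 47.7% were below 0 and 10.2% were lower at that threshold. The other 5 tested genes inside it, all pseudogenes, were also below 0 (−0.69 to −0.11), with 0 at an unadjusted p under 0.05. The 6 tested genes within 1 Mb on either side lay between −0.12 and 0.11. Neighbours can share reads and regulation and are not independent, and no test was made for the position.

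Cytosolic sulfotransferases of the Sult1 type act mainly on phenols, thyroid hormone and estrogen, and those of the Sult2 type on steroids and bile acids. Of 8 tested Sult genes 6 were below 0, 3 were lower at an unadjusted p under 0.05, 0 passed 5% FDR by edgeR and 1 by DESeq2. Over all genes tested, 47.7% were below 0, 10.2% were lower at that unadjusted p and DESeq2 called 4.03% lower. Sult1b1, a thyroid hormone and phenol sulfotransferase, had normalized counts of lowest 535.9, median 851.9 and highest 1159 in WT and 254.3, 514.7 and 690.1 in Nod2-/- mice. Its log2 fold change was −0.75 (SE 0.21, edgeR adjusted p = 0.0762, exact permutation p = 0.00758), with adjusted p-values of 0.0158 by DESeq2, 0.0310 by voom and 0.0290 without WT replicate 3. WT replicate 3 was the lowest WT mouse for this gene, and 4 of 7 Nod2-/- mice were below it.

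Sult2a8, a liver bile acid sulfotransferase, was the most abundant Sult gene by reads. It ranged from 9980 to 28540 normalized counts (median 18640) in WT and from 4126 to 16380 (median 11520) in Nod2-/- mice, a log2 fold change of −0.80 (SE 0.31, edgeR adjusted p = 0.150, exact permutation p = 0.0286). Sult1a1, the main phenol sulfotransferase, lay the other way with 4324 to 9019 (median 6497) in WT and 5138 to 12040 (median 7564) in Nod2-/- mice. Its log2 fold change of 0.29 (SE 0.25, edgeR adjusted p = 0.499, exact permutation p = 0.309) was within the spread between mice.

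Sult1d1, which acts on catecholamines and other phenols, had a log2 fold change of −0.73 (SE 0.29, edgeR adjusted p = 0.153), and its genotypes overlapped widely, with 2132 to 6103 normalized counts in WT and 1347 to 3488 in Nod2-/- mice. Sult5a1 had −0.68 (SE 0.51) and ranged from 125.4 to 990.3 in Nod2-/- mice alone. Sult1e1, the estrogen sulfotransferase, had a log2 fold change of 0.97 (SE 0.74) that came from Nod2-/- replicate 7 with 167.6 normalized counts, against 3.97 to 32.9 in the other 6 Nod2-/- mice and 8.77 to 27.4 in WT. Without that mouse it was −0.41, so its direction rests on 1 liver. Sult1c2 (−0.32, SE 0.23) and Sult2a7 (−0.20, SE 0.39) had smaller values.

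**Figure D4:**
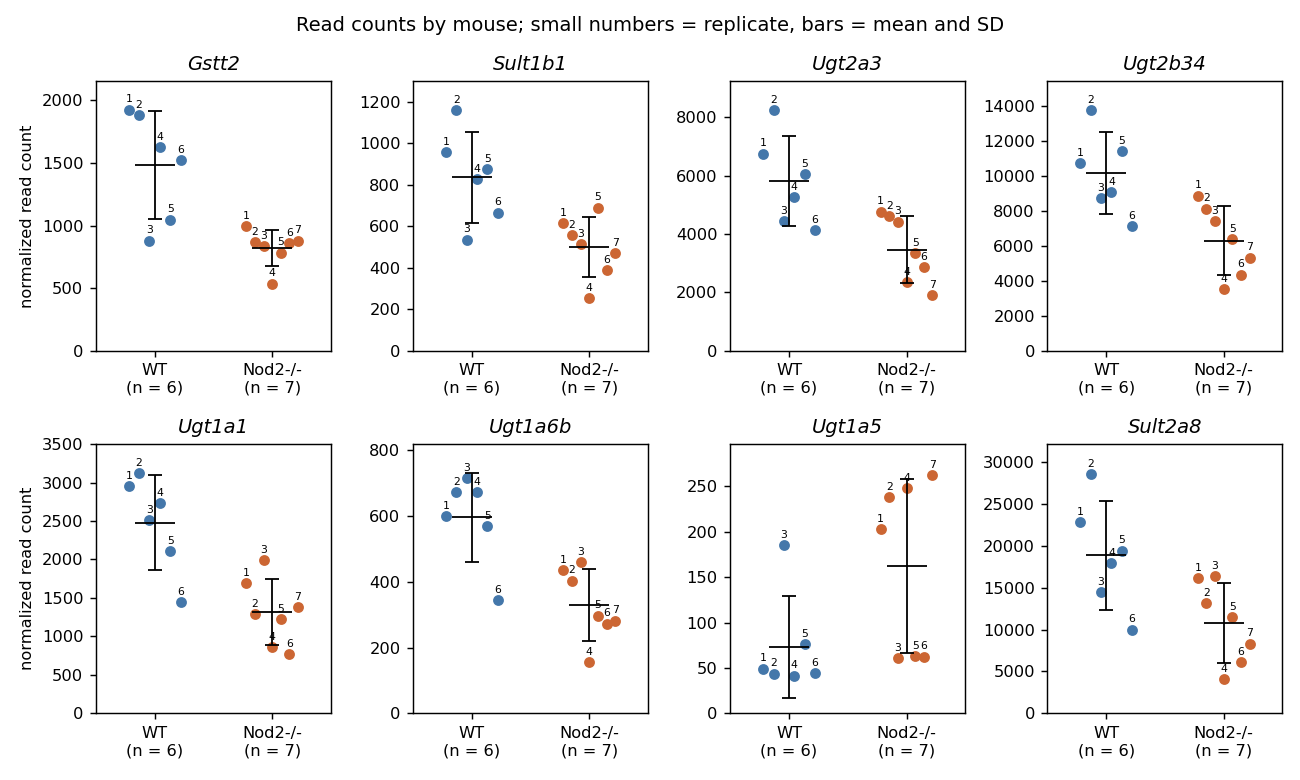
Normalized read counts of 8 members in each mouse (small numbers give the replicate), with mean and SD, on axes that start at 0. Gstt2 has 6 of 7 Nod2-/- mice below every WT mouse, and Ugt1a5 has WT replicate 3 and 4 Nod2-/- mice high.

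Theta class glutathione transferases act on small halogenated compounds and some sulfates. Gstt2 (ENSMUSG00000033318.7, chromosome 10, 75831114 to 75837424, minus strand, GRCm38) was the member that fell at 5% FDR. Its normalized counts were 1926, 1883, 880.3, 1628, 1048 and 1526 in WT replicates 1 to 6. In Nod2-/- replicates 1 to 7 they were 997.3, 869.4, 836.2, 535.5, 783.2, 859.1 and 879.1. Of 7 Nod2-/- mice 6 were below every WT mouse, and 5 of 6 WT mice were above every Nod2-/- mouse. The overlap lay between WT replicate 3 and Nod2-/- replicate 1.

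The means of Gstt2 were 1482 ± 431.5 (SD, n = 6) and 822.8 ± 142.2 (SD, n = 7), so the Nod2-/- mean was 55.5% of the WT mean. The log2 fold change was −0.85 (SE 0.18, edgeR adjusted p = 0.0422, two-sided exact permutation p = 0.00117, where the smallest possible is 0.000583). It passed 5% FDR in 4 of the 13 fits that left out 1 mouse, with adjusted p-values from 0.00777 (without WT replicate 3) to 0.111, while the log2 fold change stayed between −0.98 and −0.76. Only 1.16% of its 43-base stretches occur in another gene.

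The neighbours of Gstt2 on chromosome 10 had fold changes of the same sign that did not pass 5% FDR. Gstt1 had 2679 to 5121 normalized counts (median 3222) in WT and 2550 to 3193 (median 2842) in Nod2-/- mice, a log2 fold change of −0.35 (SE 0.16, edgeR adjusted p = 0.198, exact permutation p = 0.0839). WT replicates 1 and 2, at 5121 and 5017, lay above all the other mice. Gstt3 had −0.46 (SE 0.29), and Gstt4 had 2 reads in all mice.

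Alpha class genes encode glutathione transferases that act on lipid peroxides and their aldehydes. All 3 tested Gsta genes were below 0. Gsta3 ranged from 13500 to 31050 normalized counts (median 14880) in WT and from 8066 to 23100 (median 12910) in Nod2-/- mice, a log2 fold change of −0.40 (SE 0.26, edgeR adjusted p = 0.373, exact permutation p = 0.221). Gsta4, which conjugates 4-hydroxynonenal, had 830.8 to 1538 (median 1015) and 564.4 to 1108 (median 817.7), a log2 fold change of −0.47 (SE 0.19, edgeR adjusted p = 0.166, exact permutation p = 0.0536). Gsta2 had 54.14 to 192.7 (median 98.61) and 8.98 to 109 (median 71.69), a log2 fold change of −0.89 (SE 0.45, edgeR adjusted p = 0.248, exact permutation p = 0.0851). For each of them WT replicates 1 and 2 were the highest WT mice. Gsta1 and Gsta2 share many 43-base stretches with other genes, 91.4% and 54.6%.

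The mu class, a tandem array on chromosome 3 with broad activity on epoxides, showed no common direction: 4 of 7 genes were above 0 and 3 below, from −0.27 to 0.28, with 0 at an unadjusted p under 0.05. Gstm1 had 11550 to 14080 normalized counts (median 13590) in WT and 5469 to 12990 (median 11740) in Nod2-/- mice, where replicate 4 was the lowest and the other 6 were at 9719 or more. Its log2 fold change was −0.27 (SE 0.17, edgeR adjusted p = 0.350, exact permutation p = 0.0437). Gstm6 had 1060 to 2093 (median 1773) and 741.0 to 2321 (median 1441), a log2 fold change of −0.23 (SE 0.23, edgeR adjusted p = 0.558, exact permutation p = 0.338). Gstm2 had 0.28 (SE 0.35), and this value turned to −0.11 without Nod2-/- replicate 7. The signs of Gstm3 (0.05) and Gstm4 (−0.01) also changed when single mice were left out.

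The pi class, known for its high level in male mouse liver, was the family with all tested genes above 0. Gstp1 had 9045 to 18080 normalized counts (median 12980) in WT and 8328 to 18400 (median 14340) in Nod2-/- mice, a log2 fold change of 0.13 (SE 0.21, edgeR adjusted p = 0.724, exact permutation p = 0.524). Gstp3 had 253.0 to 519.7 (median 410.6) and 363.8 to 719.3 (median 486.1), a log2 fold change of 0.33 (SE 0.18, edgeR adjusted p = 0.287, exact permutation p = 0.130). Gstp2 had 0.42 (SE 0.41), and 50.8% of its 43-base stretches occur in Gstp1. None of the 3 had an unadjusted p under 0.05 by edgeR, and the genotypes overlapped for each.

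Of the classes with few genes, Gstk1, a mitochondrial and peroxisomal enzyme, had 1402 to 2858 normalized counts (median 2049) in WT and 1414 to 2347 (median 1791) in Nod2-/- mice, a log2 fold change of −0.23 (SE 0.17, edgeR adjusted p = 0.430, exact permutation p = 0.249). Gstz1, maleylacetoacetate isomerase of tyrosine breakdown, had 10190 to 18970 (median 13510) and 9374 to 13170 (median 12150), a log2 fold change of −0.29 (SE 0.15, edgeR adjusted p = 0.261, exact permutation p = 0.0997). Both genotypes overlapped for these genes, and the highest mice were WT replicates 1 and 2.

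The omega class reduces dehydroascorbate and arsenic compounds. Gsto1 had 691.4 to 1145 normalized counts (median 930.0) in WT and 669.2 to 990.7 (median 783.6) in Nod2-/- mice, a log2 fold change of −0.21 (SE 0.11, edgeR adjusted p = 0.259, exact permutation p = 0.0874). Gsto2 was near the limit of what these libraries can measure, with 6.58 to 17.7 (median 12.2) and 0 to 10.9 (median 6.15). Its log2 fold change was −1.21 (SE 0.47, edgeR adjusted p = 0.151, exact permutation p = 0.00699), and 5 of 7 Nod2-/- mice were below every WT mouse.

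Among the membrane-bound transferases, Mgst1 had 44040 to 74860 normalized counts (median 64470) in WT and 29260 to 61340 (median 47620) in Nod2-/- mice, a log2 fold change of −0.31 (SE 0.18, edgeR adjusted p = 0.321, exact permutation p = 0.0903). Mgst3 had 137.4 to 254.2 (median 159.4) and 117.7 to 430.1 (median 191.1), a log2 fold change of 0.27 (SE 0.26, edgeR adjusted p = 0.539, exact permutation p = 0.503), and its highest value was Nod2-/- replicate 6. Neither gene passed the test, and the genotypes overlapped for both.

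The remaining 22 members had too few reads for the test. They were 13 Sult genes (among them all of Sult2a1 to Sult2a6, Sult2b1, Sult3a1, Sult3a2 and Sult4a1), 4 Ugt1a genes, Ugt2a1, Ugt2a2, Gsta1, Gstt4 and Mgst2. The highest count in a single mouse was 46, for Sult2a2 in a WT mouse. No read was counted in any mouse for 5 of them (Sult1c1, Sult3a2, Sult6b2, Ugt2a1 and Ugt2a2), which allows up to 3 counts per library, or 0.146 to 0.217 CPM, by counting error only. Several Sult2a and Sult3a genes are known for higher levels in female than in male mouse liver.

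Across members, single livers moved together. Nod2-/- replicate 4 was the lowest Nod2-/- mouse for 25 of 43 members, or 58.1%, against 17.9% of all genes tested. WT replicate 2 was the highest WT mouse for 19 of 43, or 44.2%, against 17.5% of all genes. WT replicate 6 was the lowest WT mouse for 12 of 43, or 27.9%, against 17.3% of all genes. WT replicate 3 was the lowest for 15 of 43, or 34.9%, nearer to its share of 27.4% of all genes. The summed level of all members was 6827 CPM in Nod2-/- replicate 4, 9585 to 13320 CPM in the other Nod2-/- mice and 17980 CPM in WT replicate 2. Without Nod2-/- replicate 4, 0 members passed 5% FDR by edgeR and 10 had an unadjusted p under 0.05. These counts were not particular to that mouse. The fit that dropped WT replicate 2 also gave 0 and 10. Dropping WT replicate 1 gave 0 and 11, as did dropping Nod2-/- replicate 7.

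**Figure D5:**
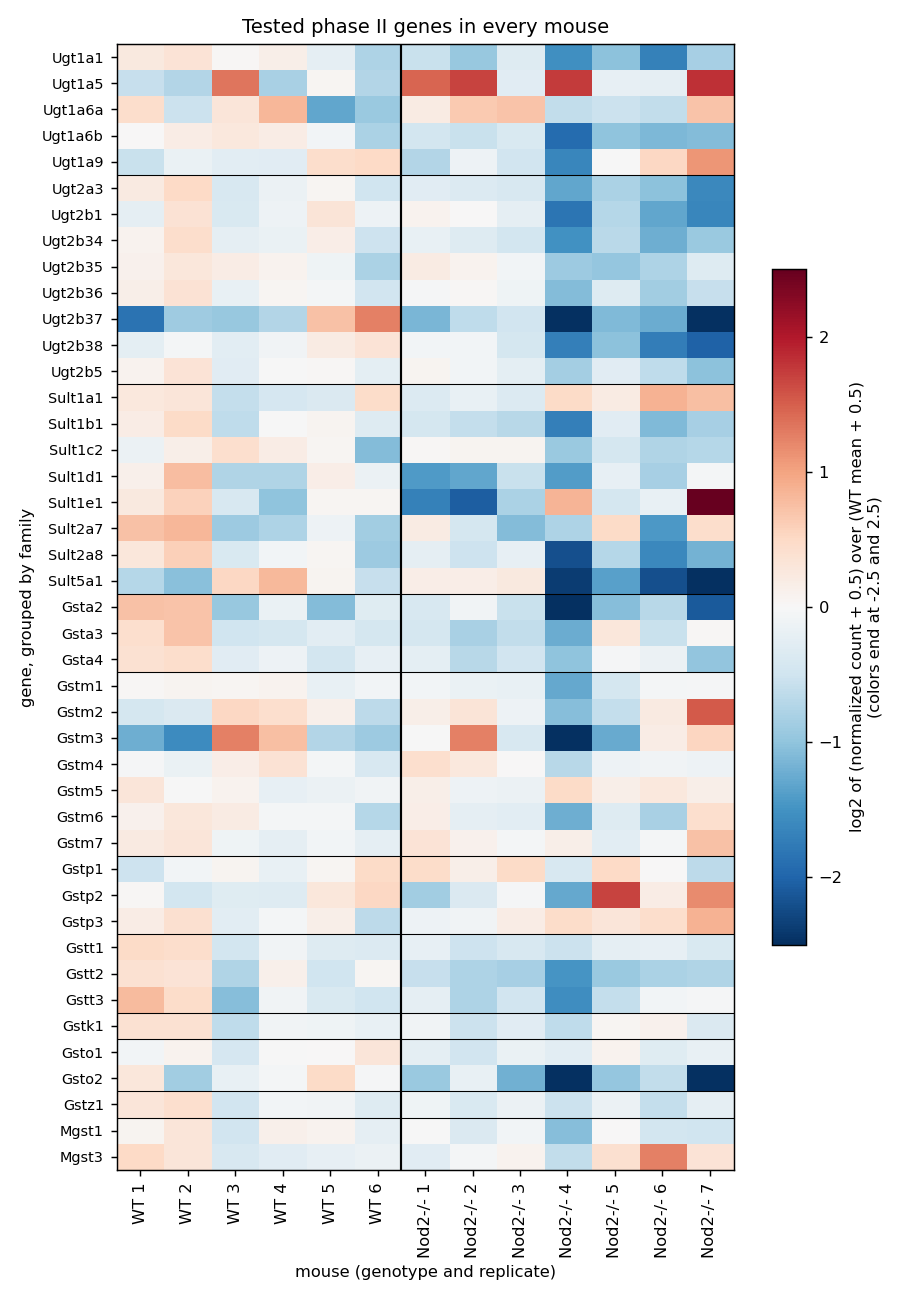
Log2 ratio of each mouse's normalized count to the WT mean, after adding 0.5 to both, for the 43 tested members in family order; blue is below and red above the WT mean. Nod2-/- replicate 4 is blue for most members, and the Ugt2 rows are palest in Nod2-/- replicates 1 to 3.

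Levels of marker lists for other cells and zones are given beside these values. The summed level of 14 pericentral hepatocyte markers, the zone where many conjugating enzymes are most active, was 10580 to 19700 CPM in WT and 3813 to 11570 CPM in Nod2-/- mice, lowest in replicate 4. Of these markers 7 were above 0 and 7 below (median −0.09), and 3 were lower and 2 higher at an unadjusted p under 0.05, with 0 past 5% FDR by edgeR and 2 lower by DESeq2. The sum of 13 periportal markers was 8923 to 13320 CPM in WT and 8648 to 13950 CPM in Nod2-/- mice. Of these 7 were above 0 and 6 below (median 0.03), and 1 was lower and 4 higher at that p. By edgeR 1 was higher at 5% FDR, and DESeq2 called 1 lower and 2 higher. Over all genes tested, 10.2% were lower and 12.9% higher at that p. Neutrophil markers summed to 14.03 to 135.2 CPM in WT and 69.6 to 4310 CPM in Nod2-/- mice, highest in replicate 7. A liver tumor list summed to 53.8 to 698 CPM in WT and 242 to 3649 CPM in Nod2-/- mice, with Sox9 higher at 5% FDR. Its highest WT mouse was replicate 3 and its highest Nod2-/- mouse was again replicate 7. The tumor and neutrophil lists share Lcn2, so their sums are not independent. A kidney tubule list lay at 0 to 0.463 CPM in all mice, with Kap, Slc12a1, Slc22a6 and Aqp2 at 0. The part of these cells and of tumor tissue in the members' values was not tested.

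Genes that supply and use the conjugation reactions were read from lists beside the members. The supply, other conjugating, deconjugating, export, regulator and receptor target lists held 123 tested genes, of which 0 passed 5% FDR by edgeR. DESeq2 called 12 lower and 4 higher, with 4.03% of all genes lower and 8.41% called in either direction. Without WT replicate 3, edgeR called 8 lower and 4 higher, with 3.37% of all genes lower and 8.49% called in either direction. Of 9 genes for UDP-glucuronic acid supply 7 were below 0 and 1, Ugp2, was lower at an unadjusted p under 0.05 (−0.46, SE 0.17). Of 9 genes for PAPS and sulfate supply 7 were below 0, with Bpnt1 (−0.47, SE 0.11), which degrades PAP, Papss2, a PAPS synthase (−0.64, SE 0.21), and Suox (−0.51, SE 0.20) lower and Slc35b3 (0.40, SE 0.15) higher at that threshold. For Bpnt1 the adjusted p was 0.0526 by edgeR, 0.0253 without WT replicate 3 and 0.00318 by DESeq2, and for Papss2 it was 0.102, 0.0773 and 0.0346. The glutathione supply list also held genes of glutathione breakdown. Of its 16 tested genes 10 were below 0, with 3 lower and 2 higher at an unadjusted p under 0.05. The lower were Chac1 (−0.94, SE 0.25), a breakdown enzyme, Nat8f1 (−0.38, SE 0.14) and Oplah (−0.33, SE 0.15). The higher were Gss, glutathione synthetase (0.40, SE 0.12), and Ggct (0.50, SE 0.19). The medians of the 3 supply lists were −0.22, −0.29 and −0.16, beside 0.02 over all genes. Of all genes tested, 47.7% were below 0, and 10.2% were lower and 12.9% higher at an unadjusted p under 0.05.

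The next counts stand beside 47.7% of all genes below 0, and 10.2% lower and 12.9% higher at an unadjusted p under 0.05. Other conjugating enzymes, which methylate, acetylate or add amino acids, had 14 of 18 tested genes below 0 (median −0.34), 10 lower and 2 higher at that threshold. An example was Glyat, glycine N-acyltransferase (−0.54, SE 0.15, adjusted p = 0.0775, and 0.0291 without WT replicate 3 and 0.0150 by DESeq2). Nnmt, nicotinamide N-methyltransferase, was on the other side (1.72, SE 0.62, adjusted p = 0.127). Of 7 deconjugating enzymes 2 were below 0. The export pump list of 11 genes also held Rdx and Ezr, which are not pumps. Of these 11 genes 5 were below 0 and 2 lower at that threshold. Among the lower was Abcc3, which exports glucuronides to blood (−0.94, SE 0.25, adjusted p = 0.0663, and 0.0402 without WT replicate 3 and 0.00753 by DESeq2).

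Of 34 tested genes listed as regulators of conjugating enzymes 24 were below 0 (median −0.15), 11 lower and 3 higher at an unadjusted p under 0.05. Over all genes tested, 47.7% were below 0, and 10.2% were lower and 12.9% higher at that threshold. Nr1i2, the xenobiotic receptor PXR, had −0.61 (SE 0.17, adjusted p = 0.0712, and 0.0228 without WT replicate 3 and 0.0131 by DESeq2). Por, on the same list but an enzyme that passes electrons to cytochromes P450 and no regulator, had −0.84 (SE 0.22, adjusted p = 0.0659, and 0.0233 without WT replicate 3 and 0.00683 by DESeq2). Nfe2l2, the regulator of the antioxidant response, had 0.32 (SE 0.13, adjusted p = 0.158). Of 19 xenobiotic receptor targets outside the families 12 were below 0, with 5 lower and 3 higher.

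Sex-biased liver genes were listed because several Sult and Gst genes differ between the sexes. Of 21 male-biased genes 13 were below 0, with 5 lower and 3 higher at an unadjusted p under 0.05, and Moxd1 and Serpina12 were higher at 5% FDR (adjusted p = 0.00102 and 0.0422). Of 18 tested female-biased genes 11 were above 0, with 4 lower and 4 higher, and Cyp17a1 was higher at 5% FDR (adjusted p = 0.0260). The medians were −0.57 and 0.13. Over all genes tested, 10.2% were lower and 12.9% higher at an unadjusted p under 0.05, and 0.65% were higher at 5% FDR.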

How the data were processed

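Liver RNA of 6 WT and 7 Nod2-/- mice was sequenced as paired 43-base reads from stranded polyadenylated RNA libraries. Per the labels and the paper's methods, the authors used Trimmomatic 0.33 for trimming and TopHat2 2.1.1 for mapping to GRCm38 with GENCODE M16. The counting program, and its use of strand and multiply mapped reads, are not given in the sources used here. The authors deposited whole-number counts per gene and mouse, without normalization; 1 row with a blank name was dropped, also from library sizes. Symbols and positions come from GENCODE M21 of GRCm38, in which 53360 of 53465 identifiers were found. Depth was 13824780 to 20579984 counts per library, and 13545 genes, with 99.9% of counts, passed filterByExpr. The test was edgeR's (version 4.0.16, R 4.3.3; TMM, glmQLFit, glmQLFTest, two-sided, no covariate, Benjamini-Hochberg adjustment over all genes tested, threshold 0.05). For members given in full, normalized counts were also permuted over all 1716 splits of the 13 mice (exact permutation test, two-sided).

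Levels per length are CPM divided by the length of the exons' union. Shared 43-base stretches were counted among all annotated transcripts, and promoters are RefSeq's. Members named in full were the 1 past 5% FDR, the 8 with the largest absolute log2 fold change among those with an average log2 CPM of 1 or more, and the 2 with most reads of each family (1 for Gstk, Gsto and Gstz). Members past 5% FDR by DESeq2 or in a fit that left out 1 mouse were also named, as were Gsto2 and list genes past 5% FDR; others were named where a family is described. The members, gene lists and motifs were chosen with earlier results of these data known, and the study's own gene selection used the same mice.

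The alternatives were DESeq2 1.42.0, limma 3.58.1 voomWithQualityWeights, RLE size factors, library totals alone (for overlap of the groups), no filter, at least 10 counts in every mouse, a robust fit, removal of the 20 most abundant genes, the replicate number as a block, and leaving out each mouse. DESeq2 on edgeR's filtered genes, and leaving out WT replicate 3 and Nod2-/- replicate 7 together, were chosen after seeing the data. Only the main edgeR fit and the DESeq2 and voom fits were also run on simulated data, and the other settings were not. Libraries were compared in pairs within a genotype, and none was a duplicate. A few list genes are not reported here by name, and the other experiments of the study were not analysed.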

Additional observations from a re-analysis of the deposited data

Results flagged for a closer look

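In 4 of the 86 sets of values examined (43 members in each genotype), 1 mouse lay far from the rest by Dixon's 95% criterion, which chance alone meets in about 1 in 20 sets. Gstm2 had 2477 normalized counts in Nod2-/- replicate 7, against 407 to 1061 in the other Nod2-/- mice. Sult1e1 had 167.6 in the same mouse, against 3.97 to 32.9. Mgst3 had 430.1 in Nod2-/- replicate 6, against 118 to 237. Ugt1a5 had 185.3 in WT replicate 3, against 41.7 to 76.2 in the other WT mice. What set these mice apart was not tested.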

How the results depend on the processing

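The count of all genes past 5% FDR was 157, and it was 1209 with DESeq2, 843 with voom, 1161 with DESeq2 on edgeR's genes, 567 without WT replicate 3 and Nod2-/- replicate 7, and 35 with the replicate block. The members past 5% FDR were 1, and 6, 4, 6, 1 and 0 in the same settings, and 2 with no filter; leaving out 1 mouse gave 0 to 6 members and 41 to 1156 genes. Gstt2 kept its call only without WT replicate 3 or 5 and without Nod2-/- replicate 1 or 3, each left out alone. Members with an unadjusted p under 0.05 numbered 15, or 10 to 22 without 1 mouse, and those lower 14, or 9 to 21, the lowest without WT replicate 2. Members without overlap numbered 0 to 2 without 1 mouse: Gstt2 without WT replicate 3 or Nod2-/- replicate 1, Ugt1a1 and Ugt1a6b without WT replicate 6. The causes were not tested.

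Replicate numbers do not pair the mice: same-numbered mice correlated at −0.30 to 0.30, and none of the 6 correlated best with its own number. The block left 0 members at 5% FDR and 13 at an unadjusted p under 0.05.

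Of 983 single-gene values, 917 kept direction and side of the threshold, 23 moved past it, 10 back and 33 changed sign, all with fold changes that did not pass 5% FDR. With the block, Gstm2 was −0.11, Gstm3 −0.042, Gstp2 −0.046, Sult1e1 −0.57 and Ugt1a9 −0.34. With voom, Gstm4 was 0.043, Sult1e1 −0.37 and Ugt1a9 −0.19. Without WT replicate 3 and Nod2-/- replicate 7, Gstm4, Sult1e1 and Ugt1a9 were 0.045, −0.48 and −0.32. Sult2a7 kept its sign there, at −0.46 against −0.20 in the main fit. Leaving out 1 mouse gave −0.11 to 0.42 for Gstm2, −0.31 to 0.52 for Gstm3, −0.11 to 0.079 for Gstm4, −0.41 to 1.17 for Sult1e1, −0.36 to 0.043 for Sult2a7 and −0.27 to 0.18 for Ugt1a9. The family medians of Gstm, Mgst and Ugt1a also changed sign without 1 mouse, from −0.080 to 0.14, −0.13 to 0.084 and −0.27 to 0.18.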
